A study of Mus musculus with 12 samples.

Results

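The genes described here encode the semaphorins, a family of guidance cues, and their principal receptors, the plexins and neuropilins, in pyramidal cells and interneurons of the postnatal mouse cortex. Members were chosen by gene symbol: 31 genes whose symbol stood alone for a probe set on the array, comprising 20 semaphorins, 9 plexins and 2 neuropilins, out of 22961 probe sets with a gene symbol. A gene was represented by its probe set with the highest mean over the 12 arrays, and only Sema4d had more than 1 probe set to choose from. All 31 were measured.

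GFP-positive cells of C57BL6 mice were sorted by flow cytometry and their RNA was hybridised to Affymetrix Mouse Gene 1.0 ST arrays. IN P10 and IN P0 were GABAergic interneurons sorted from cortices of Nkx2-1Cre;RCE:LoxP mice at postnatal days 10 and 0. Pyr P12 and Pyr P0 were pyramidal cells sorted from somatosensory cortices of NexCre;RCE:LoxP mice at postnatal days 12 and 0. Each group had 3 biological replicates, named A, B and C, and the labels do not say how many animals went into each. All animals carried the RCE:LoxP reporter, which leaves GFP on in every cell that has had Cre and in its descendants. Nkx2-1Cre acts in progenitors of the medial ganglionic eminence and neighbouring ventral regions, which give rise to many but not all cortical interneurons and also to some cells of the oligodendrocyte lineage. NexCre acts in cells of the pyramidal lineage, Nex being another name for Neurod6. IN P10 and Pyr P12 differed in population, in age and in the cortical area named by the labels, so these cannot be told apart in that comparison. In every comparison across populations, also at P0 and for the age by population values, the Cre line and the cortical area named by the labels differed too and cannot be told apart from the population.

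Semaphorins share an extracellular sema domain and mostly repel growing axons, although some attract. Class 3 members are secreted and most bind a neuropilin, which has no signalling domain of its own and forms a complex with a type A plexin or Plxnd1. Class 4, 5 and 6 members span the membrane and bind plexins directly, and Sema7a, the class 7 member, is held at the membrane by a lipid anchor. Inside the cell plexins act on small GTPases and, through collapsin response mediator proteins and LIM kinase, on microtubules and actin. In the cortex these cues are known for steering migrating interneurons and callosal axons, for orienting dendrites and for removing spines and synapses after birth.

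Values are log2 probe set intensities after robust multiarray average normalisation. A gene was called different between groups when limma gave an adjusted p under 0.05 and the fold change was over 2, that is, over 1 on the log2 scale. Background was taken on each array from 1204 probe sets for olfactory and vomeronasal receptors, taken as not expressed, as their 95th percentile, and lay between 7.13 and 7.45. Of the 31 genes, 29 were above it on every array, the exceptions being Sema3d and Nrp2. Each probe set has its own response, so levels were compared between groups within a gene and not between genes. In sorted bulk RNA, fewer cells expressing a gene and less RNA per cell cannot be told apart.

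The arrays of a group correlated at r = 0.995 to 0.999 over all probe sets and those of different groups at r = 0.941 to 0.983. Of the pan-interneuron markers (Gad1, Gad2, Slc32a1 and Dlx genes), 7 of 7 measured were higher in interneurons at either age. Of 9 astrocyte markers, 4 (Slc1a2, Slc1a3, Sox9 and Fgfr3) were above background on every array and 3 (Aqp4, Gja1 and Gjb6) on none, and the list summed to 2191 to 2501 in linear intensity in IN P10, 2435 to 2677 in IN P0, 8315 to 8552 in Pyr P12 and 2181 to 2245 in Pyr P0. Oligodendrocyte precursor markers were higher in interneurons: their summed linear intensity ran from 11171 to 17162 in IN P10 and from 12443 to 15481 in IN P0, against 2844 to 3044 in Pyr P12 and 2432 to 2920 in Pyr P0. Myelinating oligodendrocyte markers summed to 6206 to 8345 in IN P10, 2693 to 2932 in IN P0, 2264 to 2383 in Pyr P12 and 1804 to 1904 in Pyr P0, with Ermn and Opalin not above background in any of them. Pyramidal markers summed to 5203 to 5598 in IN P10 and 11483 to 13660 in IN P0, against 28488 to 29598 in Pyr P12 and 27782 to 29416 in Pyr P0. Oligodendrocyte precursor sums thus went with every member that was higher in interneurons, as any list higher in interneurons must. Myelinating markers moved with each of the members that rose in IN P10 against IN P0 (Sema3c, Sema3e, Sema5a and Plxnb3). The pyramidal sum moved with every member that fell in IN P10 against IN P0 or was lower in interneurons. That sum includes Bcl11b and Cux2, which were higher in IN P0 relative to Pyr P0, by 0.61 and 0.71 log2. Bcl11b was also 0.94 higher in IN P10 relative to Pyr P12. The other 7 of the 9 markers were lower in IN P0 relative to Pyr P0. These matches follow from the direction of each list sum and use no values of single members. The part of all these transcripts in the member differences was not tested.

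**Figure D1:**
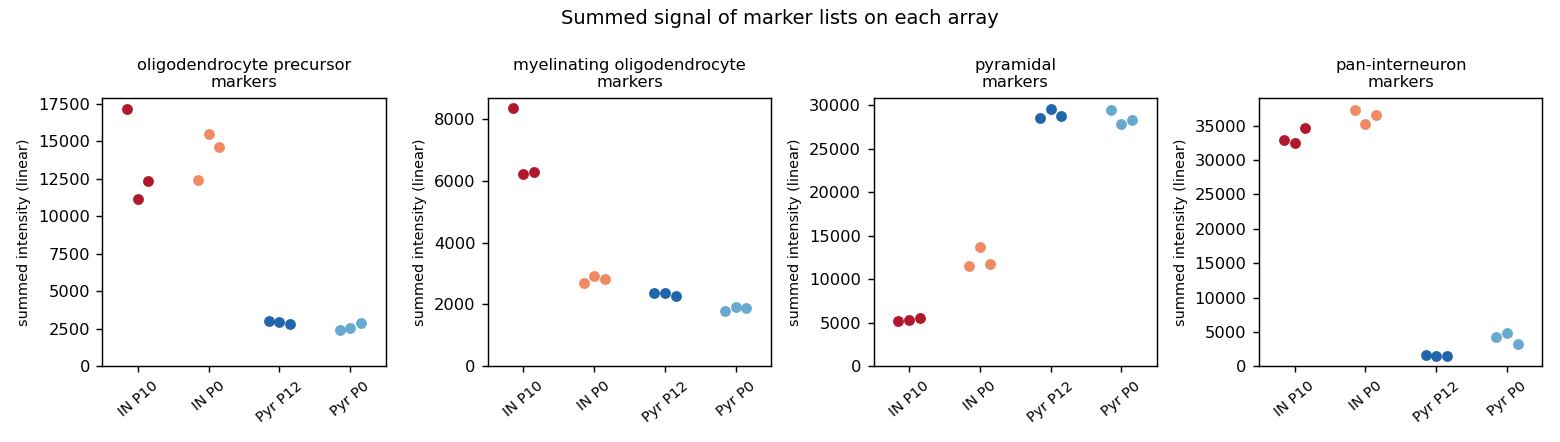
Summed linear intensity of each marker list (vertical axis, from 0) on each array, with points in the order of replicates A, B and C within IN P10, IN P0, Pyr P12 and Pyr P0. Oligodendrocyte precursor markers sum to at least 11171 on every interneuron array and at most 3044 on pyramidal arrays. The pyramidal sum, which includes Bcl11b and Cux2, is lower in IN P10 (at most 5598) than in IN P0 (at least 11483).

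Promoter windows are shown for Sema3c, Sema3e and Sema5a, the 3 semaphorins that were higher in IN P10 relative to IN P0. Of the 31 genes, 26 had an entry in the RefSeq promoter table of build GRCm38.p6. Among the 9 genes called in that comparison, these 3 had a single entry that began at the outer end of the annotated gene. Each window holds the 250 bases before the annotated start, 5′ to 3′, on the plus strand, at chr5:17574566-17574815 for Sema3c, chr5:14025026-14025275 for Sema3e and chr15:32244563-32244812 for Sema5a. Capitals mark the GC box GGGCGG and the E-box CAGATG on either strand (CCGCCC and CATCTG on the reverse); where GC boxes overlap, each was counted.
Sema3c: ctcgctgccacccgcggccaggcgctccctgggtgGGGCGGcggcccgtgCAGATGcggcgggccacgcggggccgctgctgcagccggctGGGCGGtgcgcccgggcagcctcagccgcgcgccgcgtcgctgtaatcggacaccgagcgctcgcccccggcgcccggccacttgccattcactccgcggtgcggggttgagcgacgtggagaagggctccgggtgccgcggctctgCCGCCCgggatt
Sema3e: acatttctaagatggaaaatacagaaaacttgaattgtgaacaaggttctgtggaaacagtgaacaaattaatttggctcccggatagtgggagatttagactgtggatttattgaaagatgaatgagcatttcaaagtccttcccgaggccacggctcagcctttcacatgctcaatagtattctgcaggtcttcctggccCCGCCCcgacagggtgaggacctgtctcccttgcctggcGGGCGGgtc
Sema5a: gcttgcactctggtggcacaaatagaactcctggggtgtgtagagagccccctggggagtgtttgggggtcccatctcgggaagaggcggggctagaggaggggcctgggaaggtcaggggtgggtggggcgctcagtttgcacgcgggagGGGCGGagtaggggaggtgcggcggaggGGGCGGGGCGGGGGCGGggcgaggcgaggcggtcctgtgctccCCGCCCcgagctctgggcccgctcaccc
The Sema3c window held 3 GC boxes and 1 CAGATG, the Sema3e window 2 GC boxes and the Sema5a window 5 GC boxes. A GC box lies in 32.7% and CAGATG in 14.4% of the 32851 windows of this length in the table. A further E-box, CAGCTG, which reads the same on both strands and lies in 13% of windows, was searched for and had no match in the 3 windows. The windows differed in composition, with 78.4% G or C and 39 CpG in Sema3c, 48% and 7 in Sema3e, and 72% and 17 in Sema5a, against medians of 52.4% and 6 over all windows. The motifs were picked after the expression values were known, and a match is only a description of the letters.

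Members of the family changed with age and differed between the populations. At least 1 comparison called 20 of the 31 genes, 12 of the 20 semaphorins and 8 of the 11 receptors, where 15.3% of all probe sets tested were called at least once. Between IN P10 and IN P0, 4 members rose and 5 fell, where 4.19% of all probe sets tested rose and 2.85% fell. Between Pyr P12 and Pyr P0, 2 rose and 10 fell, against 5.68% and 3.48% of all probe sets. Between the populations, 7 members were higher and 2 lower in IN P10 relative to Pyr P12, where 2.65% and 2.91% of all probe sets were, and 4 were higher and 4 lower in IN P0 relative to Pyr P0, where 1.9% and 1.74% were. The change with age differed between populations for 7 members, being more positive in interneurons for 5 and more negative for 2, against 2.24% and 2.63% of all probe sets. In the 4 comparisons between groups, no called difference had overlapping arrays. With a median SD of 0.082 within groups over the 31 genes, a fold over 2 leaves little room for overlap. The lack of overlap thus adds little to the calls. Members were chosen as a family and not at random, so these shares describe the family beside the array as a whole.

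**Figure D2:**
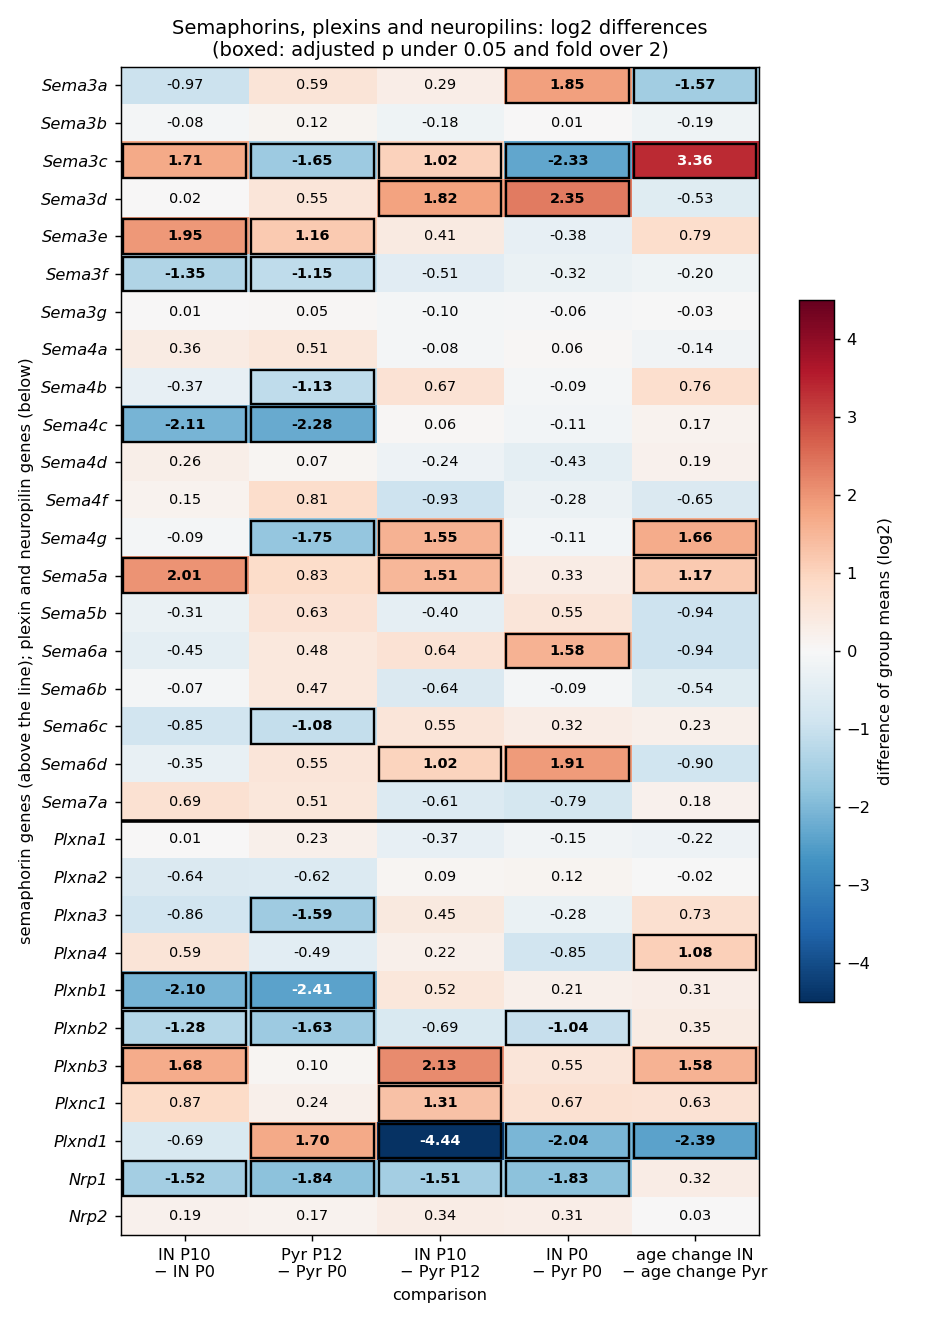
Differences of group means on the log2 scale (colour and printed number) for the 20 semaphorins above the line and the 11 receptors below it, in each of 5 comparisons; boxes mark adjusted p under 0.05 with a fold over 2. Blue boxes gather in the column for Pyr P12 against Pyr P0, where 10 members fell and 2 rose, and the deepest value is -4.44 for Plxnd1 in IN P10 against Pyr P12.

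Ligands and receptors were also counted apart, without a test of one set against the other. Among semaphorins, 3 rose and 2 fell in IN P10 against IN P0, with a median log2 difference of -0.08 over all 20, while among receptors 1 rose and 3 fell, with a median of -0.64 over all 11. In Pyr P12 against Pyr P0, 1 semaphorin rose and 6 fell, yet the median was 0.48 with 14 of the 20 values positive, all but that of Sema3e under the fold threshold. Receptors in this comparison had 1 rise and 4 falls and a median of -0.49. The medians over all probe sets tested were 0.00 in interneurons and 0.06 in pyramidal cells. Between the populations, 5 semaphorins were higher and none lower in IN P10 relative to Pyr P12, with a median of 0.17, and 2 receptors were higher and 2 lower, with a median of 0.22. At birth, 4 semaphorins were higher and 1 lower in IN P0 relative to Pyr P0, with a median of -0.08, while the 3 receptors called were all lower, with a median of -0.15 over the 11.

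Changes with age went in the same direction in both populations for 22 of the 31 genes. Called in both were 5 that fell (Sema3f, Sema4c, Plxnb1, Plxnb2 and Nrp1), 1 that rose (Sema3e) and 1 that went opposite ways (Sema3c). Of all probe sets, 7.04% were called in IN P10 against IN P0 and 9.16% in Pyr P12 against Pyr P0. Across the 31 genes the changes in interneurons and pyramidal cells, which share no arrays, had a Pearson r of 0.525. It was 0.426 over semaphorins and 0.63 over receptors. Genes are not independent replicates, and these values are descriptions. Shared directions, calls in both populations and r were not computed over all probe sets. They therefore cannot be read as particular to this family.

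**Figure D3:**
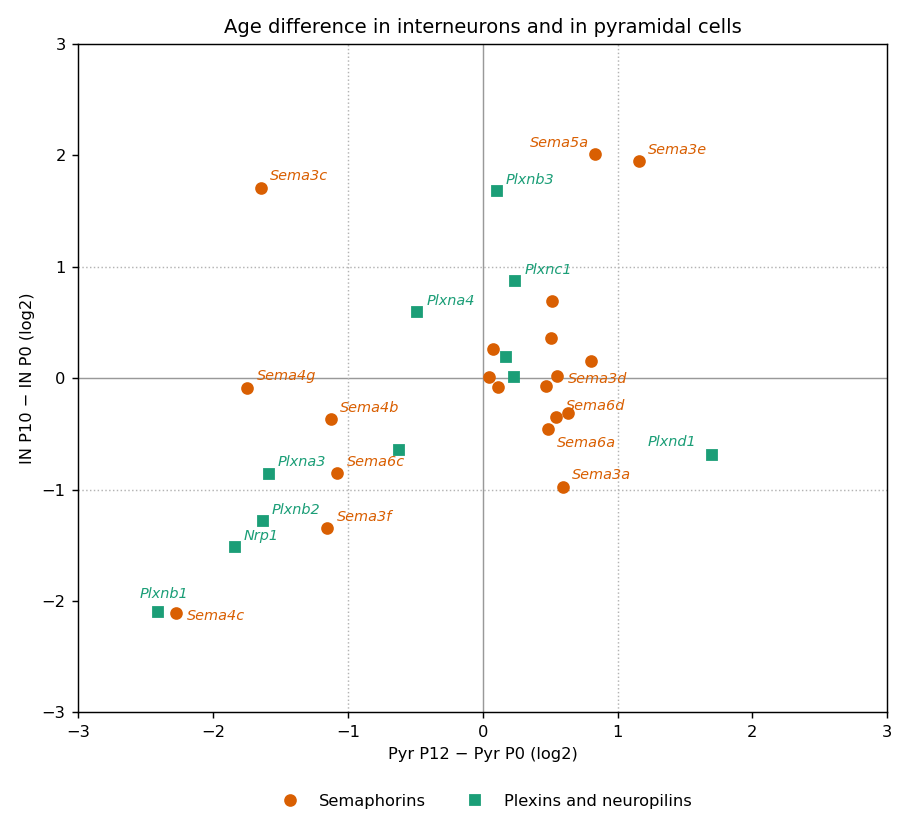
Log2 difference between IN P10 and IN P0 (vertical) against that between Pyr P12 and Pyr P0 (horizontal) for semaphorins (circles) and plexins and neuropilins (squares); dotted lines mark a fold of 2 and the 20 genes called in any comparison are named. Plxnb1 and Sema4c sit together at the lower left, below -2 in both populations, while Sema3c (1.71 and -1.65) and Plxnd1 (-0.69 and 1.70) lie off the diagonal.

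Class 3 semaphorins, the secreted ligands, included the gene whose changes with age in the populations were furthest apart. Sema3c, a ligand of both neuropilins, measured 9.87, 9.63 and 9.65 in IN P10, against 8.09, 8.31 and 7.61 in IN P0. It measured 8.84, 8.68 and 8.55 in Pyr P12, against 10.60, 10.31 and 10.10 in Pyr P0. Interneurons were thus high at the later age and pyramidal cells at birth, with no overlap between ages in either. Sema3c rose in interneurons by 1.71 ± 0.16 log2 (SE, 3.28-fold, adjusted p = 8.02e-07 with limma) and fell in pyramidal cells by 1.65 ± 0.16 (3.13-fold, adjusted p = 9.79e-07). The difference between these changes was 3.36 ± 0.23 (adjusted p = 1.35e-07), the largest of this comparison among the 31 genes. Sema3c was 5.05-fold lower in IN P0 relative to Pyr P0 (adjusted p = 8.7e-08) and 2.03-fold higher in IN P10 relative to Pyr P12 (adjusted p = 0.00014). The last of these sits at the fold threshold: its log2 difference was 1.02, and 0.95 without IN P10 replicate A or without Pyr P12 replicate C, which ends the call.

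Sema3e, which binds Plxnd1 without needing a neuropilin, was the member that rose in both populations. Its values were 9.73, 9.84 and 9.75 in IN P10, against 7.85, 7.93 and 7.69 in IN P0. In pyramidal cells they were 9.42, 9.47 and 9.21 in Pyr P12, against 8.09, 8.26 and 8.26 in Pyr P0. The later arrays were above the arrays of P0 throughout. The rise was 1.95 ± 0.081 log2 in interneurons (3.86-fold, adjusted p = 4.41e-10) and 1.16 ± 0.081 in pyramidal cells (2.24-fold, adjusted p = 3.7e-08). These rises differed by 0.79 ± 0.12 (adjusted p = 0.000145), which is under the fold threshold.

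Plxnd1, the receptor of Sema3e, set the populations furthest apart of any member. It measured 8.02, 8.01 and 7.95 in IN P10, against 8.32, 9.11 and 8.61 in IN P0. In Pyr P12 it measured 12.32, 12.46 and 12.50, against 10.63, 10.80 and 10.75 in Pyr P0. Pyramidal cells were high at both ages and higher at the later one, while interneurons were low at both. Plxnd1 rose 3.26-fold in Pyr P12 against Pyr P0 (1.70 ± 0.14 log2, adjusted p = 2.23e-07). It was 21.6-fold lower in IN P10 relative to Pyr P12 (adjusted p = 3.04e-11) and 4.12-fold lower in IN P0 relative to Pyr P0 (adjusted p = 1.05e-07). The change in interneurons, -0.69 ± 0.14, was under the fold threshold, and the difference between the changes was -2.39 ± 0.20 (adjusted p = 1.06e-06). Within IN P0, replicate B was the highest for Plxnd1 (9.11), and it also had the highest pyramidal marker sum, 13660 against 11483 and 11797 in replicates A and C. The other members called lower in IN P0 relative to Pyr P0, Nrp1 (9.39), Sema3c (8.31) and Plxnb2 (10.44), were also highest in replicate B. So were some members not called in that comparison, such as Sema3e (7.93) and Sema5a (9.68). Of the members called higher in IN P0, Sema3a (12.18) and Sema3d (8.91) were lowest in replicate B. Sema6a (12.66) and Sema6d (11.42) lay between the other replicates there. The part of pyramidal transcripts in the values of Plxnd1 and these members was not tested.

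Sema3a, the founding repellent of the class and a ligand of Nrp1, was highest in interneurons at birth. Its levels were 11.27, 11.43 and 11.30 in IN P10, against 12.29, 12.18 and 12.44 in IN P0. They were 11.03, 11.09 and 11.00 in Pyr P12, against 10.62, 10.46 and 10.27 in Pyr P0. The populations lay closer at the later age, 0.29 apart on the log2 scale. Sema3a was 3.61-fold higher in IN P0 relative to Pyr P0 (1.85 ± 0.087, adjusted p = 2.32e-09). The change in interneurons was -0.97 ± 0.087 and that in pyramidal cells 0.59 ± 0.087, neither past the fold threshold, and they differed by -1.57 ± 0.12 (adjusted p = 5.7e-07). Without replicate B of IN P10 or of IN P0, the interneuron change was -1.02 or -1.03 and passed the threshold.

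Sema3d, a further secreted ligand, was present in interneurons and at the edge of background in pyramidal cells. The arrays gave 9.31, 8.98 and 9.02 in IN P10 and 9.20, 8.91 and 9.13 in IN P0. Pyr P12 gave 7.30, 7.28 and 7.26, with 1 of 3 arrays above background, and Pyr P0 gave 6.71, 6.82 and 6.66, with none. Interneurons of the 2 ages overlapped, and both lay above all pyramidal arrays. Relative to Pyr P12, the level of Sema3d in IN P10 was higher by at least 3.32-fold (adjusted p = 1.89e-09), and it was at least 3.62-fold higher in IN P0 relative to Pyr P0 (adjusted p = 3.75e-10), each bound being set against the higher of background and the gene's own value on the pyramidal arrays. Oligodendrocyte precursor markers were also higher in interneurons at both ages, as given above.

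Sema3f, which acts through Nrp2 and Plxna3 to repel axons and trim dendritic spines, fell with age in both populations. IN P10 arrays read 9.54, 9.65 and 9.65, against 11.02, 11.02 and 10.85 in IN P0. Pyr P12 arrays read 9.99, 10.18 and 10.21, against 11.27, 11.32 and 11.24 in Pyr P0. The fall was of like size, 1.35 ± 0.069 log2 in interneurons (2.54-fold, adjusted p = 2.91e-09) and 1.15 ± 0.069 in pyramidal cells (2.22-fold, adjusted p = 8.16e-09), with a difference of -0.20 ± 0.098 (adjusted p = 0.154). The remaining class 3 genes, Sema3b and Sema3g, had group means between 7.87 and 8.22 and differences from -0.19 to 0.12, none called.

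**Figure D4:**
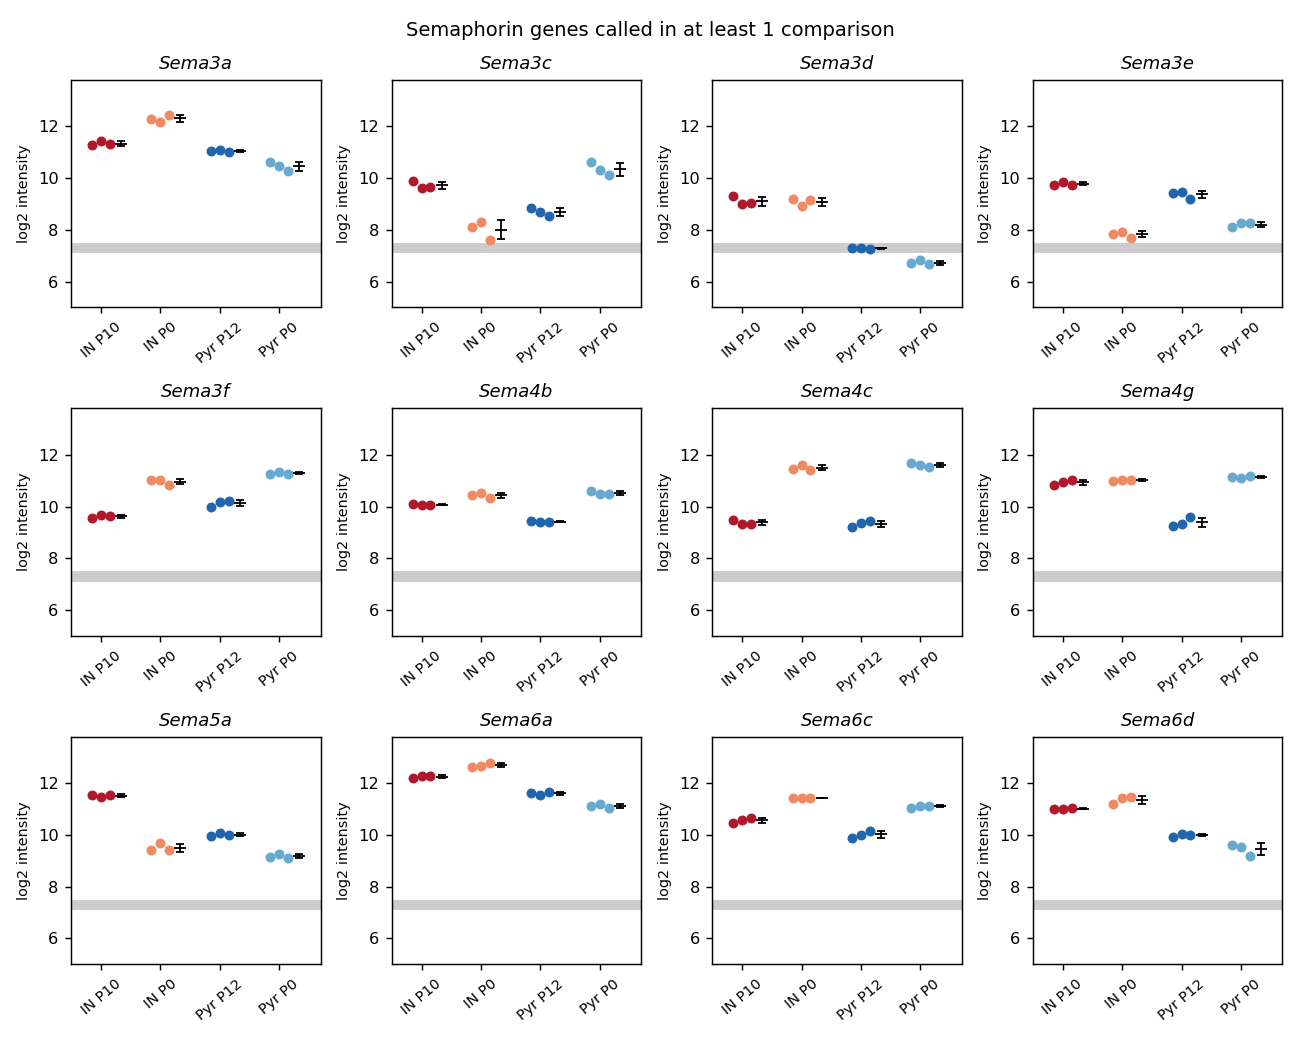
Log2 intensity on each array for the 12 semaphorin genes called in at least 1 comparison, with the groups in the order IN P10, IN P0, Pyr P12 and Pyr P0, the mean ± SD (n = 3) at the right of each group and a grey band for the range of background over the 12 arrays (7.13 to 7.45). Sema3c is high in IN P10 and Pyr P0 and lower in the other groups, and Sema3d falls into the grey band in Pyr P12 and below it in Pyr P0.

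The neuropilin Nrp1, shared by class 3 semaphorins and by vascular endothelial growth factor, was lower in interneurons and fell with age. Its values were 7.82, 7.61 and 7.45 in IN P10, against 8.96, 9.39 and 9.09 in IN P0. Pyramidal values were 8.96, 9.28 and 9.18 in Pyr P12, against 11.07, 10.93 and 10.93 in Pyr P0. IN P10 was the lowest group, close to background, and Pyr P0 the highest. Nrp1 fell 2.87-fold in interneurons (-1.52 ± 0.12, adjusted p = 1.24e-07) and 3.57-fold in pyramidal cells (-1.84 ± 0.12, adjusted p = 1.4e-08), and these changes differed by 0.32 ± 0.17 (adjusted p = 0.168). It was 2.85-fold lower in IN P10 relative to Pyr P12 (adjusted p = 1.75e-07) and 3.56-fold lower in IN P0 relative to Pyr P0 (adjusted p = 4.26e-08). Among interneuron arrays, 4 of 9 pyramidal markers also had a called fall with age, and 5 were not called. The steepest falls were those of Neurod6 (6.29 in IN P10 and 9.85 in IN P0) and Tbr1 (7.45 in IN P10 and 10.14 in IN P0). Differences were negative for 8 of the 9, some of them small (-0.18 for Emx1). Slc17a7 went the other way, at 8.14 in IN P10 and 8.02 in IN P0. The part of pyramidal transcripts in the Nrp1 fall was not tested. Nrp2 was near background in all 4 groups, with means of 7.89 in IN P10, 7.69 in IN P0, 7.55 in Pyr P12 and 7.38 in Pyr P0, and was not called.

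Type A plexins, the signalling partners of neuropilins and the direct receptors of class 6 semaphorins, differed among themselves. Plxna3 read 10.87, 10.95 and 10.95 in IN P10, against 11.85, 11.78 and 11.71 in IN P0. It read 10.43, 10.36 and 10.63 in Pyr P12, against 12.06, 12.09 and 12.04 in Pyr P0. Both populations were lower at the later age, and the pyramidal fall alone passed the fold threshold (-1.59 ± 0.068, 3.01-fold, adjusted p = 2.58e-10), the interneuron change being -0.86 ± 0.068. These changes differed by 0.73 ± 0.096 (adjusted p = 5.65e-05), which is under the fold threshold. Plxna4 had changes of opposite sign, with 12.73, 12.73 and 12.85 in IN P10, against 12.10, 12.23 and 12.21 in IN P0. Its values were 12.52, 12.55 and 12.57 in Pyr P12, against 13.10, 12.98 and 13.03 in Pyr P0. Neither change passed the fold threshold (0.59 ± 0.056 in interneurons and -0.49 ± 0.056 in pyramidal cells), but their difference did, at 1.08 ± 0.079 (adjusted p = 3.12e-07). Plxna2 was lower at the later age by similar amounts, -0.64 in interneurons and -0.62 in pyramidal cells, and Plxna1 had differences from -0.37 to 0.23.

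Among the class 4 ligands and type B plexins, several of which bind one another, most called changes were falls with age. Sema4c, a ligand of Plxnb2, measured 9.48, 9.34 and 9.33 in IN P10, against 11.44, 11.61 and 11.43 in IN P0. It measured 9.21, 9.34 and 9.43 in Pyr P12, against 11.70, 11.59 and 11.52 in Pyr P0. The populations overlapped at each age and the ages were far apart. Sema4c fell 4.31-fold in interneurons (-2.11 ± 0.075, adjusted p = 1.14e-10) and 4.84-fold in pyramidal cells (-2.28 ± 0.075, adjusted p = 2.61e-11), with a difference between changes of 0.17 ± 0.11 (adjusted p = 0.26).

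Plxnb1, the receptor of Sema4d, also fell steeply in both populations. IN P10 arrays gave 9.10, 8.91 and 9.06, against 10.97, 11.23 and 11.19 in IN P0. Pyr P12 arrays gave 8.33, 8.46 and 8.73, against 10.85, 10.92 and 10.99 in Pyr P0. It fell 4.30-fold in interneurons (-2.10 ± 0.098, adjusted p = 1.17e-09) and 5.31-fold in pyramidal cells (-2.41 ± 0.098, adjusted p = 1.74e-10). Its ligand Sema4d did not pass the threshold in any comparison, with differences from -0.43 to 0.26, and a further Sema4d probe set gave -0.57 to 0.82. For IN P10 against Pyr P12 these probe sets disagreed in sign, at -0.24 and 0.25. They also did for Pyr P12 against Pyr P0, at 0.07 and -0.45.

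Plxnb2, the receptor of Sema4c and Sema4g, was lower at the later age and lower in interneurons. Its levels were 9.27, 8.88 and 9.11 in IN P10, against 10.36, 10.44 and 10.30 in IN P0. They were 9.67, 9.77 and 9.89 in Pyr P12, against 11.44, 11.38 and 11.41 in Pyr P0. No 2 groups overlapped. The fall was 2.43-fold in interneurons (-1.28 ± 0.087, adjusted p = 3.97e-08) and 3.10-fold in pyramidal cells (-1.63 ± 0.087, adjusted p = 2.49e-09). Plxnb2 was 2.06-fold lower in IN P0 relative to Pyr P0 (adjusted p = 6.54e-07).

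Sema4g, the other ligand of Plxnb2, was called between the populations at the later age and not at P0. It read 10.83, 10.96 and 11.02 in IN P10, against 11.00, 11.03 and 11.04 in IN P0. Pyr P12 read 9.26, 9.31 and 9.59, against 11.15, 11.09 and 11.16 in Pyr P0. Pyr P12 alone stood below the other groups. Sema4g fell 3.35-fold in pyramidal cells (-1.75 ± 0.078, adjusted p = 4.32e-10) and was 2.93-fold higher in IN P10 relative to Pyr P12 (adjusted p = 2.44e-09), and the change with age differed between populations by 1.66 ± 0.11 (adjusted p = 1.28e-07). Sema4b, which is found at synapses, was similar in shape, with 10.11, 10.05 and 10.06 in IN P10, against 10.44, 10.53 and 10.34 in IN P0. Its pyramidal values were 9.43, 9.40 and 9.39 in Pyr P12, against 10.62, 10.50 and 10.48 in Pyr P0. The pyramidal fall was 2.18-fold (-1.13 ± 0.058, adjusted p = 1.7e-09), and the interneuron change of -0.37 and the difference between changes of 0.76 ± 0.082 (adjusted p = 1.01e-05) were under the fold threshold. Sema4a and Sema4f were not called in any comparison, the largest of their differences being -0.93 for Sema4f in IN P10 against Pyr P12.

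Sema5a, a membrane semaphorin with thrombospondin repeats, and Plxnb3, its receptor, rose together in interneurons. Sema5a measured 11.54, 11.45 and 11.56 in IN P10, against 9.43, 9.68 and 9.41 in IN P0. It measured 9.95, 10.07 and 10.01 in Pyr P12, against 9.14, 9.26 and 9.13 in Pyr P0. IN P10 stood above the other 3 groups. Sema5a rose 4.02-fold in interneurons (2.01 ± 0.073, adjusted p = 1.25e-10) and was 2.84-fold higher in IN P10 relative to Pyr P12 (adjusted p = 1.55e-09). In pyramidal cells the change was 0.83 ± 0.073, under the fold threshold, and the 2 changes differed by 1.17 ± 0.10 (adjusted p = 1.5e-06).

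Plxnb3 gave 10.12, 9.42 and 9.70 in IN P10, against 7.88, 8.13 and 8.18 in IN P0. Pyramidal cells were near background, with 7.70, 7.78 and 7.37 in Pyr P12 and 7.39, 7.52 and 7.63 in Pyr P0. Interneurons at P10 were again the high group. Plxnb3 rose 3.21-fold in interneurons (1.68 ± 0.15, adjusted p = 6.06e-07), was 4.39-fold higher in IN P10 relative to Pyr P12 (adjusted p = 7.81e-08), and its change with age differed from that in pyramidal cells by 1.58 ± 0.22 (adjusted p = 8.13e-05). Myelinating oligodendrocyte markers moved with these genes, 3 of the 9 measured being called between IN P10 and IN P0 (Mag at 1.84, Cnp at 1.89 and Cldn11 at 1.33 log2) and none of the 9 having a negative difference. Within IN P10 the replicates of Plxnb3 stood in the same order (A, C, B) as the sums of oligodendrocyte precursor markers, 17162, 12340 and 11171, and of myelinating markers, 8345, 6284 and 6206. Of the 31 genes 9 stood in that order, Sema3c, Sema3d, Sema3g, Sema4b, Sema5b, Plxnb1, Plxnb2 and Nrp2 beside Plxnb3, among them genes that rose, fell or were not called. The share of all probe sets in that order was not taken. Sema5a was highest in replicate C (11.56), with replicate A close to it (11.54). That gap is under its SD of 0.0585 in IN P10, so the order of A and C is not resolved. The smaller gap of each of the 9 genes was also under its SD, as for C and B of Sema3c (9.65 and 9.63, SD 0.13). The same held for C and B of Plxnb3 (9.70 and 9.42), whose SD of 0.35 was the largest in IN P10 among the 31 genes. Oligodendrocyte precursor markers had SDs from 0.13 (C1ql1) to 0.47 (Pdgfra) in IN P10. The part of oligodendrocyte-lineage transcripts in these values was not tested. Sema5b was not called, although its age by population difference of -0.94 became -1.03 without IN P10 replicate A and -1.08 without IN P0 replicate A, past the threshold.

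**Figure D5:**
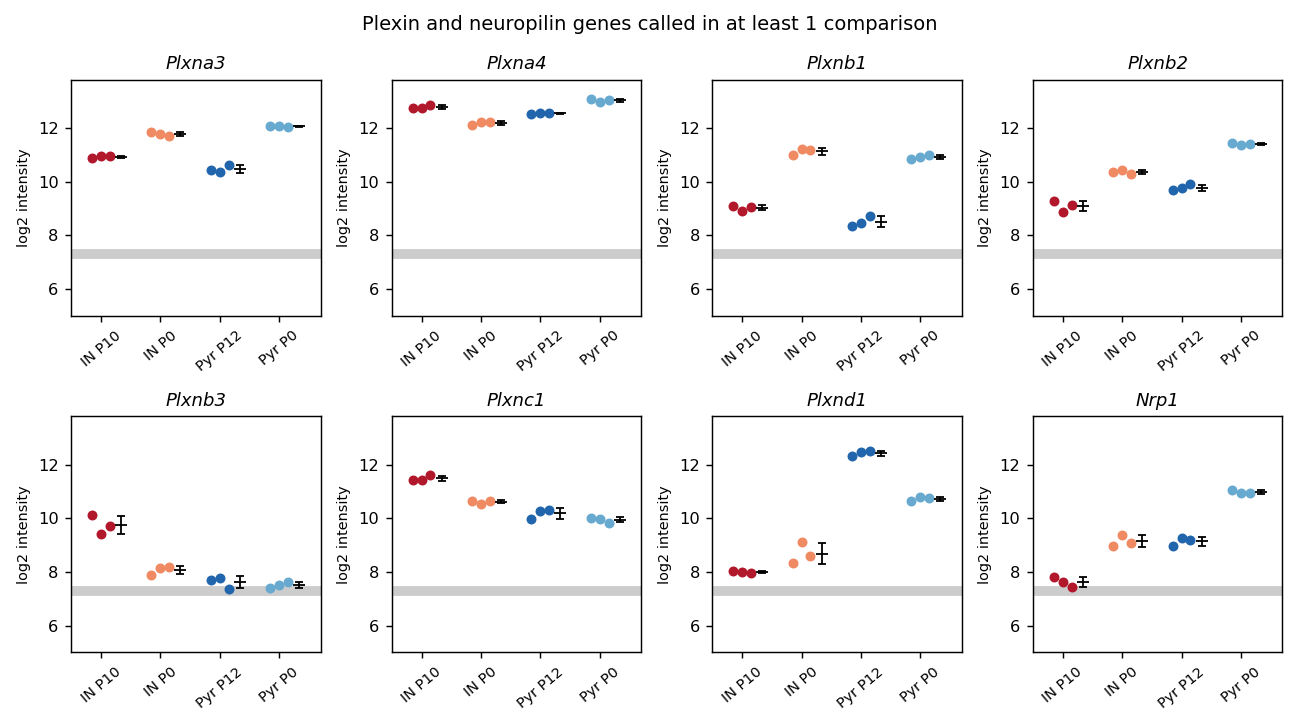
Log2 intensity on each array for the 8 plexin and neuropilin genes called in at least 1 comparison, with groups ordered IN P10, IN P0, Pyr P12 and Pyr P0, the mean ± SD (n = 3) beside each group and a grey band for the range of background (7.13 to 7.45). Plxnd1 is near 8 in IN P10 and above 12 in Pyr P12, and Plxnb3 leaves the band's neighbourhood in IN P10, where its replicates spread from 9.42 to 10.12.

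Class 6 semaphorins, transmembrane ligands of type A plexins, were higher in interneurons where called between populations. Sema6a, a ligand of Plxna2 and Plxna4, measured 12.19, 12.28 and 12.27 in IN P10, against 12.64, 12.66 and 12.80 in IN P0. Pyramidal cells had 11.63, 11.53 and 11.65 in Pyr P12, against 11.13, 11.20 and 11.04 in Pyr P0. Every interneuron array was above every pyramidal one, and Sema6a was 2.99-fold higher in IN P0 relative to Pyr P0 (1.58 ± 0.063, adjusted p = 5.29e-10). Sema6d, a ligand of Plxna1, read 11.00, 11.00 and 11.04 in IN P10, against 11.19, 11.42 and 11.48 in IN P0. It read 9.94, 10.04 and 10.00 in Pyr P12, against 9.62, 9.54 and 9.19 in Pyr P0. The order of groups was that of Sema6a. Sema6d was 3.77-fold higher in IN P0 relative to Pyr P0 (adjusted p = 6.08e-09) and 2.03-fold higher in IN P10 relative to Pyr P12 (adjusted p = 1.91e-06), that second difference of 1.02 becoming 0.99 without Pyr P12 replicate A, under the fold threshold.

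Sema6c was lower at the later age and Sema6b stayed under the threshold. Sema6c gave 10.46, 10.59 and 10.66 in IN P10, against 11.42, 11.43 and 11.42 in IN P0. It gave 9.90, 10.01 and 10.17 in Pyr P12, against 11.06, 11.13 and 11.12 in Pyr P0. The ages did not overlap in either population, and the pyramidal fall was called (-1.08 ± 0.070, 2.11-fold, adjusted p = 1.61e-08) while the interneuron change of -0.85 ± 0.070 was not. The 2 changes differed by 0.23 ± 0.098 (adjusted p = 0.0974).

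The receptor Plxnc1, which binds Sema7a, was an interneuron-high plexin. Its values were 11.42, 11.45 and 11.60 in IN P10, against 10.64, 10.55 and 10.66 in IN P0. Pyr P12 had 9.96, 10.29 and 10.29, against 10.00, 9.99 and 9.84 in Pyr P0. All interneuron arrays were above all pyramidal arrays, and the difference was called at the later age (1.31 ± 0.087, 2.47-fold, adjusted p = 4.03e-08), being 0.67 at P0. Sema7a itself leaned the other way without passing the fold threshold, at -0.61 ± 0.051 in IN P10 against Pyr P12 (adjusted p = 3.85e-07) and -0.79 ± 0.051 in IN P0 against Pyr P0 (adjusted p = 4.52e-08). It was also higher at the later age in both populations, by 0.69 in interneurons and 0.51 in pyramidal cells.

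The 11 members called in no comparison were Sema3b, Sema3g, Sema4a, Sema4d, Sema4f, Sema5b, Sema6b, Sema7a, Plxna1, Plxna2 and Nrp2. Of their 55 differences over the 5 comparisons, 27 had an adjusted p under 0.05, as did 33.3% of the differences of all probe sets called in none, and the values ran from -0.94 to 0.81 on the log2 scale.

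Read as ligand and receptor pairs, which were put together after the values were seen, some genes changed together and others did not. Sema5a and Plxnb3 both rose in interneurons. Sema4c and Plxnb2 both fell in both populations, while Sema4g, the other ligand of Plxnb2, fell in pyramidal cells only. Sema3e rose in interneurons while Plxnd1 did not pass the threshold there, and both rose in pyramidal cells. Plxnb1 fell in both populations and its ligand Sema4d was not called, and Plxnc1 was higher in IN P10 relative to Pyr P12 while Sema7a was not called. Sema3c rose in interneurons while Nrp1 fell there, and both fell in pyramidal cells. Other pairs named above are not listed here, so these are a selection.

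No other gene of the pathway lists passed the threshold with age in interneurons, and several did in pyramidal cells. Of 45 measured co-receptors, VEGF ligands and intracellular effectors, limma called none in IN P10 against IN P0, although 28 had an unadjusted p under 0.05 and 26 an adjusted p under 0.05, and the SAM procedure also called 0. Of all probe sets, 7.04% were called in that comparison and 45.5% had an adjusted p under 0.05. An unadjusted p under 0.05 was found for 11406 of the 22961 tested. In Pyr P12 against Pyr P0, 1 rose and 5 fell, where 9.16% of all probe sets were called. The effector Mical2, an actin-oxidising enzyme, rose 2.95-fold (1.56 on the log2 scale, adjusted p = 9.17e-09). The cell adhesion co-receptors Cntn2 (4.22-fold, adjusted p = 1.58e-09) and Chl1 (2.30-fold, adjusted p = 7.51e-10) fell, as did the collapsin response mediators Dpysl3 (2.67-fold, adjusted p = 3.58e-08) and Dpysl5 (2.22-fold, adjusted p = 3.97e-09) and the enzyme Mical1 (2.02-fold, adjusted p = 5.28e-08).

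Between the populations the receptor tyrosine kinase Met, which associates with type B plexins, stood out. It averaged 7.60 in IN P10 and 10.86 in Pyr P12 (9.56-fold lower in IN P10, adjusted p = 1.28e-10), and 8.51 in IN P0 and 10.39 in Pyr P0 (3.67-fold lower in IN P0, adjusted p = 4.98e-08). Of the 45 genes, 3 were higher and 2 lower in IN P10 relative to Pyr P12, where 5.56% of all probe sets were called: Chl1 (2.76-fold, adjusted p = 1.83e-10), the LIM kinase Limk1 (2.43-fold, adjusted p = 1.78e-09) and Vegfb (2.16-fold, adjusted p = 4.41e-09) were higher, and Met and the GTPase Rnd1 (2.46-fold, adjusted p = 1.44e-08), which binds plexins, were lower. In IN P0 against Pyr P0, with 3.64% of all probe sets called, 4 were lower and none higher: Met, Cntn2 (3.42-fold, adjusted p = 2.25e-08), Nrcam (2.26-fold, adjusted p = 3.13e-09), an adhesion molecule that associates with neuropilins, and Vegfd, which was at least 2-fold lower and not above background in IN P0 (adjusted p = 4.16e-07). The change with age was more positive in interneurons for 4 of the 45, Cntn2 (2.09), Limk1 (1.70), Vegfb (1.09) and Dpysl3 (1.04), and more negative for Met (-1.38), where 4.86% of all probe sets were called. The effector list gave 0 calls of 26 in IN P0 against Pyr P0 with limma and with SAM, with 16 at an unadjusted p under 0.05. Of all 22961 probe sets tested, 7044 had an unadjusted p under 0.05 in that comparison with limma.

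Of the 9 astrocyte markers, 2 rose in Pyr P12 against Pyr P0 and none fell past the fold threshold, 5 differences being positive and 4 negative. Those that rose were Slc1a2 (12.72 in Pyr P12 and 8.55 in Pyr P0) and Aldh1l1 (8.46 in Pyr P12 and 7.17 in Pyr P0), and Fgfr3 had the most negative difference, -0.90 (adjusted p = 2.37e-08). Without Slc1a2 the list summed to 1585 to 1773 in Pyr P12, against 1819 to 1847 in Pyr P0. Pan-interneuron markers went down in the same comparison, 5 of 7 being called, and their signal summed to between 1491 and 1649 in Pyr P12, against 3293 to 4786 in Pyr P0. Microglial, endothelial, and mural and fibroblast lists had 0 calls with limma and with SAM in the comparisons of groups, with at most 4 genes of a list at an unadjusted p under 0.05. In those comparisons, 7044 to 13599 of the 22961 probe sets tested had such a p with limma.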

How the data were processed

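RNA of GFP-positive cells was measured on 12 Affymetrix Mouse Gene 1.0 ST arrays, 4 groups of 3. The authors deposited 1 table of log2 intensities for 28192 probe sets, normalised with robust multiarray average (RMA, per the labels and the study's methods; version not given in the sources used here). Quantile normalisation within RMA gives all arrays like distributions, so a difference is relative to the average probe set; array medians were 8.12 to 8.22. Scanner files were not used here, and the precision is limited by 3 arrays a group.

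Groups were taken from the sample labels. Gene symbols came from the platform annotation: 21640 probe sets had 1 symbol, 1321 several and 5231 none. Of those with 1 symbol, 21553 matched the RefSeq gene table of GRCm38.p6 by gene identifier and 0 symbols changed. All 22961 with a symbol were tested with limma 3.58.1 in R 4.3.3 (lmFit, contrasts and eBayes on all 12 arrays, 8 residual degrees of freedom, group as the only term, two-sided) with Benjamini-Hochberg adjustment. The age by population comparison was the change in interneurons minus that in pyramidal cells, over intervals of unlike length. The fold threshold of 2 and the adjusted p of 0.05 follow the study's methods, which used significance analysis of microarrays (SAM), here an alternative. An exact permutation test of 3 arrays against 3 cannot go below 0.1, so p-values come from the model across all probe sets. Whether replicates came from separate animals or pools is not stated beyond their being called biological, so p-values measure the spread between these samples. Where no array of a group was above background, and for Sema3d in Pyr P12 with 1 of 3, the fold is a bound, the mean of the brighter group against the higher of background and the dim probe set's own value, per array.

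The members, pathway lists, marker lists and alternatives were chosen with earlier results of these data known. The text gives array values for every member called at least once, the called genes of the pathway lists (at most 6 a comparison), and markers as needed; promoter motifs and ligand and receptor pairs were picked after values were seen. The limma and SAM steps were tested on simulated data. Promoter windows were read from the RefSeq table. Figures were drawn with matplotlib 3.10.9.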

Additional observations from a re-analysis of the deposited data

Results flagged for a closer look

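In 7 members the change with age differed between interneurons and pyramidal cells by a test of the difference itself (limma, adjusted p under 0.05 and a fold over 2; 3 arrays a group). The value given is the log2 change in interneurons minus that in pyramidal cells.

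Sema3c had a value of 3.36 (adjusted p = 1.35e-07), rising in interneurons and falling in pyramidal cells. For Plxnd1 it was -2.39 (adjusted p = 1.06e-06), with a called rise in pyramidal cells. Sema4g gave 1.66 (adjusted p = 1.28e-07), with a called fall in pyramidal cells. Plxnb3 gave 1.58 (adjusted p = 8.13e-05) and Sema5a 1.17 (adjusted p = 1.5e-06), each with a called rise in interneurons. Sema3a, at -1.57 (adjusted p = 5.7e-07), and Plxna4, at 1.08 (adjusted p = 3.12e-07), had changes of opposite sign in the populations that were each under the fold threshold. The interneuron interval ended at P10 and the pyramidal interval at P12, which cannot be told apart from the population in these values.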

How the results depend on the processing

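Calls on members depended mainly on the fold threshold. With a fold over 1.5, the number of members called was 17 in IN P10 against IN P0 (9 at a fold over 2), 15 in IN P10 against Pyr P12 (9) and 15 for age by population (7), where 18.9%, 13.1% and 12.7% of all probe sets were called. With no fold threshold and adjusted p alone, it was 23 in IN P10 against IN P0, 26 in Pyr P12 against Pyr P0 (12), 27 in IN P10 against Pyr P12, 20 in IN P0 against Pyr P0 (8) and 18 for age by population, where 45.5%, 54.7%, 46.6%, 22.4% and 32.1% of all probe sets were. Leaving out each array in turn gave 9 to 10, 12 to 12, 8 to 9, 8 to 8 and 7 to 8 members called in these 5 comparisons. Of the 45 called differences, 43 kept their call and direction in every alternative run at the same thresholds, and none reversed. The exceptions were Sema3c (0.95 without IN P10 replicate A and 0.95 without Pyr P12 replicate C) and Sema6d (0.99 without Pyr P12 replicate A), both in IN P10 against Pyr P12. Only a change of scaling or leaving out an array altered the log2 difference of a called member. The other alternatives could end a call only through the adjusted p. That was at most 0.00014 among called differences in the main limma fit, so calls kept there add little. A call was gained by Sema3a in IN P10 against IN P0 and by Sema5b for age by population, each when 1 of 2 arrays was left out, as given above. Sema4d reversed with its other probe set, at 0.25 (adjusted p = 0.115) in place of -0.24 in IN P10 against Pyr P12. Apart from leaving out arrays, 13 alternatives were run. These changed the test (SAM, robust limma-trend, a fit of the compared groups only), the threshold, the scaling (median centring or a repeat quantile normalisation) and the probe sets that entered (without dim ones, with those lacking a symbol, or a single probe set for each gene). SAM and the fit of the compared groups only do not apply to age by population. Member differences with an adjusted p of 0.05 or more (41, beside 114 followed) were not followed. With the replicate letter as a block (replicate block), 9, 12, 9, 8 and 7 members were called, the same numbers as without it. The labels do not say whether the letters pair the arrays. Over 18 pairs of arrays with the same letter, deviations from group means correlated at r = -0.18 to 0.19, with 6 pairs over 0.1. Pairs with unlike letters ran from -0.26 to 0.30. These correlations cannot exclude a shared preparation. Near background, as for Sema3d and Nrp2 in pyramidal cells, the arrays limit what can be measured.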
